A study of Rattus norvegicus with 15 samples.

Results

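The 100 steadiest transcripts of the rat abdominal aorta were followed over 2 strains and a drug treatment. They were chosen on their values. Of 43936 transcript IDs in any of the 15 libraries, 39097 were listed in all 15, and 5709 averaged 10 or more over 14 libraries (the library labelled SHR 4 left out). The 100 most abundant were set aside, which left 5609 eligible transcripts, and the 100 with the lowest coefficient of variation (CV, the SD divided by the mean) over the 14 libraries are the members. The 5509 other eligible transcripts serve as the comparison.

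The groups were Wistar-Kyoto rats (WKY) and spontaneously hypertensive rats (SHR), both given double distilled water, and SHR given the alkaloid neferine at 10 mg/kg per day (SHR+Nef). Treatment lasted 10 weeks in each group, with 5 libraries a group. The labels give no age and do not state whether each library is a separate animal, so the replicate spread may be partly technical. The only genotype the labels state is the strain name. Replicates are numbered as in the titles, which for SHR+Nef are 1, 2, 4, 5 and 6. The strain contrast was WKY against SHR, both on water, and the drug contrast was SHR+Nef against SHR.

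The SHR is an inbred strain that develops high blood pressure without intervention, and the WKY is its usual normotensive control. The aortic wall is mostly smooth muscle, with an endothelial lining and an outer layer of fibroblasts, vessels, nerves and often fat. In such tissue, transcripts that keep a steady level are used as internal references, because the level of any other transcript can be expressed relative to them. Transcripts for basic functions of every cell, such as the ribosome, protein turnover and energy metabolism, are the usual candidates. Steadiness of a relative abundance is a property of the share of RNA a transcript takes, and in bulk tissue fewer cells of a type and less RNA per cell cannot be told apart.

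The IDs could not be joined to gene names. The RefSeq table used here (assembly GRCr8) matched 0 of the 43936 IDs, so members are named by ID and printed without function or sequence. For the same reason the common reference genes, the smooth muscle markers and the markers of other cell types were not looked up, and the tissue label was not checked against them.

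SHR replicate 4 stood apart from the other 14 libraries in the whole series. The values of a library summed to 496460 to 634078 in the 14 and to 746274 in SHR replicate 4, and 2560 to 3739 of the listed transcripts were at 0 in the 14 against 8259 in SHR replicate 4. Read depth is not given. The step that 1 read makes in the low values shrinks as depth grows for a length-normalised value. Its relative size was estimated as the commonest ratio to WKY replicate 1, over transcripts above 0 and below 0.1 in both libraries. This ratio was 0.985 to 1.19 in the 14 and 1.26 in SHR replicate 4, where 40 of 233 such transcripts lay at it. The part of these differences in the results for SHR replicate 4 was not tested. Since the rule left it out, SHR replicate 4 is the only library whose values on the members the choice did not use.

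Over the 14 libraries the members' CVs ran from 3.48% to 6.83%, with a median of 5.86%. The other eligible transcripts began at 6.83% and had a median of 21.9%. These values are the rule itself. The highest of the 14 values exceeded the lowest by a factor of 1.13 to 1.32 in every member, with a median factor of 1.22, against a median of 2.14 in the rest. The limit fell in a dense part of the distribution. MERGE.19315.2, the last member inside, had a CV of 6.83% (mean 113 ± 7.69, SD, n = 14). ENSRNOT00000016882, the first outside, had a CV that differs from it only in its last digits (mean 14.7 ± 1.00, SD, n = 14). ENSRNOT00000008164, ranked just above the last member, had a CV of 6.78%, and ENSRNOT00000005170, the second outside, 6.84%.

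**Figure D1:**
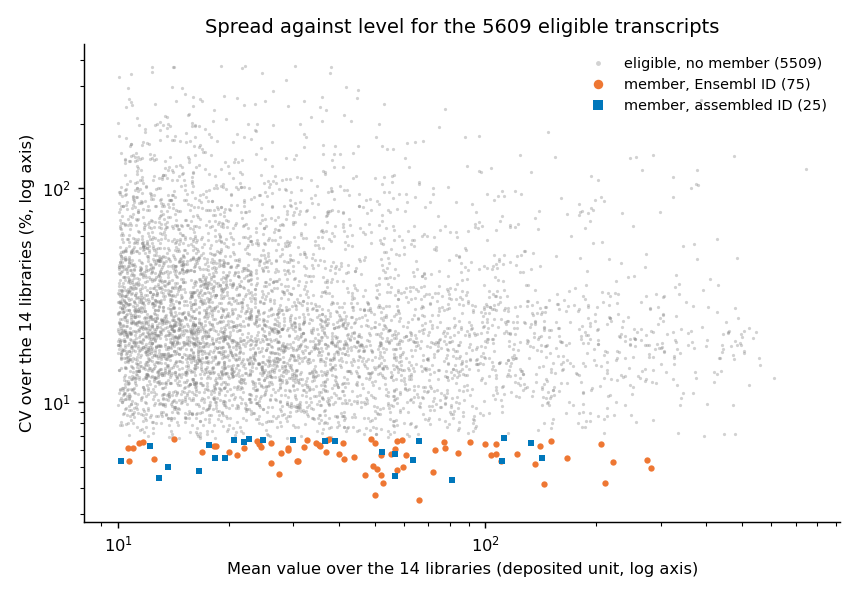
CV over the 14 libraries against the mean value, both on log axes, for the 5609 eligible transcripts (grey), members with Ensembl IDs (orange circles) and members with assembled IDs (blue squares). The members form the lower edge of the cloud from a mean of 10.2 to 283, and more of them lie in its upper part than in its lower part.

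ENSRNOT00000049812 had the lowest CV, 3.48%. It stood at 65.1, 64.6, 63.1, 66.1 and 66.0 in WKY replicates 1 to 5. In SHR it was 62.9, 64.7, 66.4 and 65.2 in replicates 1, 2, 3 and 5, and 60.4 in replicate 4. With neferine it was 66.3, 72.1, 67.9, 68.0 and 65.1. The group means were 65.0 ± 1.22 (SD, n = 5) in WKY, 64.8 ± 1.43 (SD, n = 4, replicate 4 left out) in SHR and 67.9 ± 2.63 (SD, n = 5) in SHR+Nef, and the groups overlapped. SHR replicate 4 lay below all 14 other values even in this transcript.

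ENSRNOT00000046159 came second, with a CV of 3.68% and a mean of 50.1 ± 1.84 (SD, n = 14). Its values were 51.0, 53.8, 47.7, 50.9 and 50.9 in WKY, 51.4, 49.6, 48.2 and 46.9 in SHR replicates 1, 2, 3 and 5, and 51.0, 48.3, 50.2, 51.7 and 49.5 in SHR+Nef. The values of the 3 groups overlapped. SHR replicate 4, at 60.2, was higher than any of them.

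ENSRNOT00000016432 had a CV of 4.14%. It measured 134, 141, 139.9, 144 and 157 in WKY, 142, 152, 142 and 144 in SHR, and 146, 143, 142, 152 and 149 in SHR+Nef. Both its lowest and its highest value of the 14 fell in WKY, so the spread within that group covered the other 2. SHR replicate 4 gave 113, below every other library.

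ENSRNOT00000029025 had a CV of 4.20% and is among the more abundant members. It measured 211, 226, 219, 215 and 216 in WKY, 207, 208, 203 and 200.4 in SHR, and 210.0, 199, 204, 228 and 211 in SHR+Nef. WKY (217 ± 5.66, SD, n = 5) lay above SHR (205 ± 3.56, SD, n = 4) without overlap, while SHR+Nef spanned both. SHR replicate 4 read 99.9, about 0.473 of the mean of the 14. In limma across all transcripts and all 15 libraries, SHR minus WKY was -0.29 ± 0.17 (SE, log2(value + 1)), adjusted p = 0.64. Without SHR replicate 4 it was -0.09 ± 0.06 (SE), limma adjusted p = 0.75, and it was called in neither fit.

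The remaining 6 of the 10 lowest CVs had means between 12.9 and 81.4. MERGE.27686.1 (CV 4.54%) was nearly constant in WKY, at 57.3, 57.2, 57.4, 57.4 and 56.4, and ran from 51.0 to 62.1 in the other 9 libraries of the rule. SHR replicate 4 had 28.3, which is 0.498 of the mean of the 14. MERGE.15070.1 (CV 4.45%) stayed between 12.1 and 13.7 and had 10.5 in SHR replicate 4. MERGE.27927.1 (CV 4.32%) stayed between 76.0 and 87.9 and had 62.6 there. ENSRNOT00000016112 (CV 4.21%), between 48.8 and 56.7, was lower in SHR replicate 4 as well, at 43.2, and so was ENSRNOT00000080663 (CV 4.59%), between 44.0 and 50.9, at 36.2. ENSRNOT00000035048 (CV 4.59%) was the exception among these 6, with 55.6 in SHR replicate 4 inside its range of 48.9 to 56.6.

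**Figure D2:**
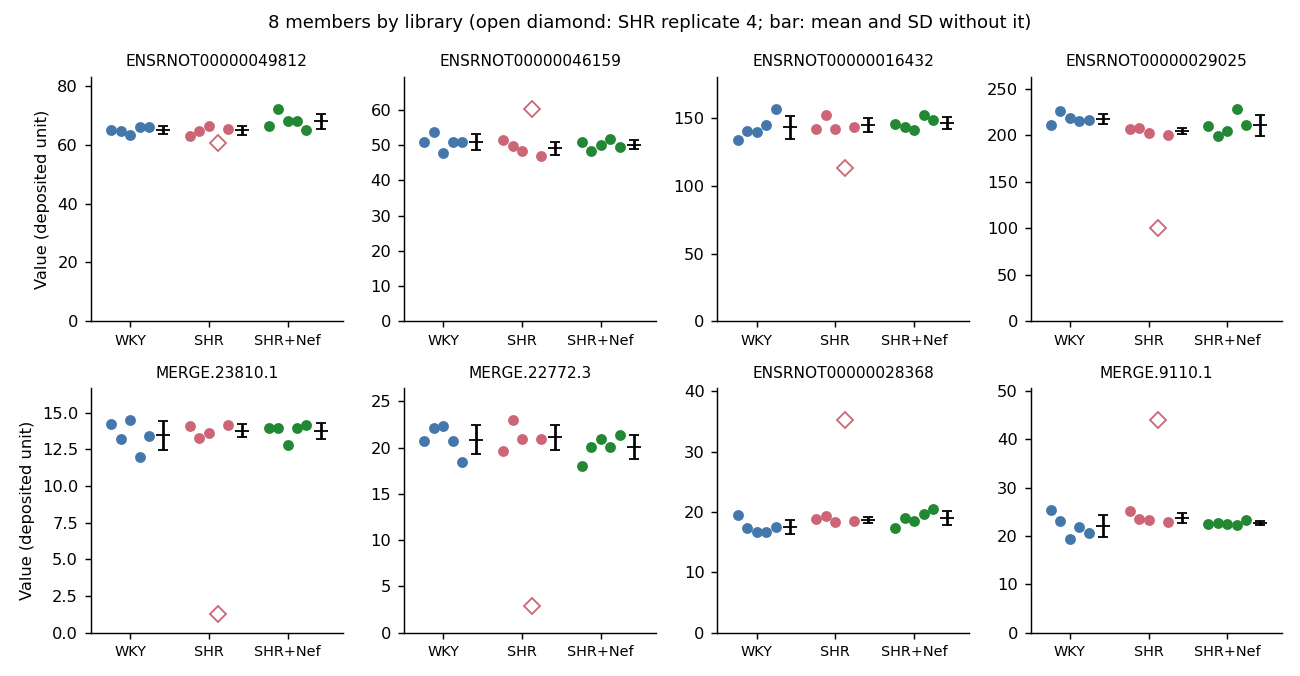
Deposited values of 8 members by group, each panel from 0, with points for libraries, an open diamond for SHR replicate 4 and a bar for each group's mean and SD without it. The top row holds the 4 lowest CVs and the bottom row the 2 lowest and the 2 highest ratios of SHR replicate 4 to the other libraries. The filled points lie in a narrow band in all 8 panels, while the diamond falls to 1.27 in MERGE.23810.1 and climbs to 43.9 in MERGE.9110.1.

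The members were of middle to high abundance. Their mean values ran from 10.2 to 283 with a median of 42.5, against a median of 22.0 in the other eligible transcripts. When the eligible transcripts were put in order of mean and divided into 5 equal bins, the bins from lowest to highest held 9, 5, 18, 32 and 36 members. The median CV of all transcripts in these bins was 26.6%, 23.4%, 21.6%, 18.9% and 19.1%. Members were thus most frequent in the upper bins, where spread was lower in general, but the lowest bin (means of 10.0 to 13.1) still held some. ENSRNOT00000078250 was the most abundant member, at 282 ± 12.4 (SD, n = 5) in WKY, 294 ± 7.46 (SD, n = 4) in SHR and 277 ± 16.5 (SD, n = 5) in SHR+Nef. ENSRNOT00000035628 followed with a mean of 276, and ENSRNOT00000051653 (10.6) and MERGE.29526.1 (10.2) were the least abundant. All 4 of these were below their own range in SHR replicate 4, which gave 229, 145, 4.50 and 7.66.

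The IDs are of 2 kinds, Ensembl transcripts and models named MERGE followed by a locus and an isoform number, read here as assembled by the authors. Ensembl IDs made up 75 of the 100 members and 65.6% of the other eligible transcripts. The 25 assembled members differed from the assembled rest in how many isoforms their locus listed. Only isoforms listed in all 15 libraries were counted, so a locus may hold more. In 21 of 25 (84%) the member was the only such isoform at its locus, compared with 692 of 1894 (36.5%) in the rest. No member locus listed more than 3 isoforms, against up to 38 in the rest. No assembled locus supplied more than 1 member, and which Ensembl transcripts share a gene was not looked up. Isoforms of a locus can share reads, which an estimator has to divide, and how the authors' estimator did so is not given.

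The other 4 assembled members shared a locus with 1 or 2 more isoforms listed in all 15 libraries. Locus sums were taken over these isoforms only. MERGE.28870.1, MERGE.23810.1 and MERGE.15070.1 held 98.2%, 95.7% and 91.3% of their locus sum on average, so member and locus are nearly the same quantity. MERGE.22772.3 held 37.5% of a locus with 3 isoforms. Its locus sum was steady too, between 49.3 and 59.9 with a CV of 5.24%, and the other isoforms together ran from 29.3 to 38.0. In SHR replicate 4 that locus sum was 15.2, and the member's part of it was 19.0%. Both the isoform and the whole locus were therefore low there. All 4 locus sums, like the 4 members, lay outside the range of the 14 libraries in SHR replicate 4.

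Within each group the members were about as steady as over the 14 libraries. Their median CV was 6.10% in WKY, 5.41% in SHR without replicate 4 and 5.01% in SHR+Nef. In the other eligible transcripts it was 21.5%, 18.8% and 16.3%. With replicate 4 included, the members' median CV in SHR was 13.2% and the highest was 49.7%, and that of the rest was 32.8%.

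The group means of the members differed little, as the rule requires. With SHR replicate 4 left out, the ratio of SHR to WKY ran from 0.909 to 1.1 with a median of 1.01, and all 100 members were within 10% (a ratio of 0.9 to 1/0.9). The ratio of SHR+Nef to SHR ran from 0.933 to 1.1 with a median of 1.01, again with all 100 within 10%. SHR+Nef to WKY ran from 0.929 to 1.12 with a median of 1.02, and 99 were within 10%. Among the other eligible transcripts, 47.6%, 52.5% and 44.0% were within 10% in the same 3 ratios. The SHR libraries are common to the first 2 ratios and the WKY libraries to the first and the last, so the 3 are not independent.

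The widest strain ratio was that of ENSRNOT00000078834, 1.1. It measured 21.8, 23.5, 23.5, 24.8 and 23.6 in WKY and 24.3, 27.1, 25.3 and 26.5 in SHR, so the groups overlapped by the highest WKY and the lowest SHR value. SHR+Nef was 24.4 ± 1.46 (SD, n = 5), and SHR replicate 4 was at 14.2. The lowest ratio, 0.909, was that of ENSRNOT00000003048. It measured 19.2, 18.4, 18.8, 18.8 and 19.4 in WKY against 18.3, 16.0, 17.9 and 16.6 in SHR, without overlap, and 17.9, 17.9, 20.5, 17.4 and 18.4 in SHR+Nef, across both. Replicate 4 of SHR was at 14.3. In limma over all 15 libraries the adjusted p for this transcript was 0.607, the smallest of any member in the strain comparison.

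The widest neferine ratio was that of ENSRNOT00000004878, 1.1. It was 26.3, 25.5, 23.9 and 24.7 in SHR and 27.0, 27.2, 29.1, 28.4 and 26.7 in SHR+Nef, without overlap, while WKY (24.1, 24.4, 26.2, 24.2 and 27.8) reached into both. SHR replicate 4 had 17.7. Its limma adjusted p over all 15 libraries was 0.780. ENSRNOT00000003414 had the lowest neferine ratio, 0.933. It was 10.6, 11, 12.4 and 12 in SHR and 10.3, 11.2, 10.8, 10.9 and 10.4 in SHR+Nef, with overlap, and 6.76 in SHR replicate 4.

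Between SHR+Nef and WKY the widest ratio was that of MERGE.5215.1, 1.12, the only member beyond 10%. It measured 33.3, 33.4, 34.6, 33.6 and 38.6 in WKY, 36.2, 36.4, 34.4 and 36.5 in SHR, and 39.0, 39.1, 39.2, 40.2 and 37.2 in SHR+Nef. The order of the group means was WKY (34.7 ± 2.24, SD, n = 5), SHR (35.9 ± 0.963, SD, n = 4) and SHR+Nef (38.9 ± 1.11, SD, n = 5). Only SHR and SHR+Nef did not overlap. WKY reached into SHR+Nef only in replicate 5, and WKY replicate 3 lay within the SHR range. In replicate 4 of SHR it was at 20.1. MERGE.25770.1 had the lowest ratio, 0.929. It ran from 142 to 159 in WKY, from 130.3 to 148 in SHR without replicate 4 and from 135 to 143 in SHR+Nef, and SHR replicate 4 exceeded all of these at 184.

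The fit over 29095 transcripts used limma on log2(value + 1), with Benjamini-Hochberg adjustment and a call at an adjusted p under 0.05. It called 0 of the 100 members for SHR against WKY, against a background of 1.14% of all transcripts. For SHR+Nef against SHR it called 0 members against a background of 0.00687%, which is 2 transcripts, and for SHR+Nef against WKY 0 against 1.30%. The number of members at an unadjusted p under 0.05 was 0 in each comparison, against 2755, 1790 and 2541 of the 29095 transcripts. With SHR replicate 4 left out of the fit the backgrounds were 1.28%, 0.00687% and 1.85%, again with 0 members called. An unadjusted p under 0.05 was reached by 2724, 1480 and 3302 of all transcripts and by 0, 0 and 1 members. That member was MERGE.5215.1, for SHR+Nef against WKY (adjusted p = 0.325 in limma). Nothing can be read from these counts, because the rule fixed them in advance by taking transcripts with little spread between and within groups.

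The members' differences depended on SHR replicate 4, which follows from a rule that kept the spread low over the other 14 libraries only. Their log2 differences between SHR and WKY ran from -0.51 to 0.28 in the fit of all 15 libraries and from -0.13 to 0.13 without it. The median difference was -0.03 with it and 0.02 without it, and over all transcripts -0.03 and 0.03. The median SE of a member fell from 0.107 to 0.0761 on the log2 scale, against 0.309 and 0.284 over all transcripts. For SHR+Nef against SHR the members' median difference was 0.06 with the library and 0.01 without it. Each of these medians was below the median SE of a member in size. That SE belongs to 1 transcript and does not measure the spread of a median over the members.

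Groups that did not overlap were counted without SHR replicate 4. They numbered 2 members for SHR against WKY (background 4.10% of all transcripts tested), 4 for SHR+Nef against SHR (background 1.68%) and 0 for SHR+Nef against WKY (background 4.20%). The 2 in the strain comparison were ENSRNOT00000029025 and ENSRNOT00000003048, both lower in SHR. The neferine comparison included ENSRNOT00000004878 and MERGE.5215.1, both higher with neferine. With all 15 libraries the counts were 2, 3 and 0, and no background is given for these. The rule chose the members for low spread between and within groups, with SHR replicate 4 left out. None of these counts can therefore be read as an excess or a shortfall against the backgrounds.

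The members served next as a ruler for each library. A library's level on the members was taken as the median ratio of its values to the 14-library mean. It ran from 0.945 in WKY replicate 1, where 75 of 100 members were below their mean, to 1.05 in SHR+Nef replicate 5, where 79 were above. The other 12 libraries lay between these. SHR replicate 4 was at 0.815, with 68 members below and 32 above. The members together made up 0.925% to 1.25% of the listed sum in the 14 libraries and 0.743% in SHR replicate 4.

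**Figure D3:**
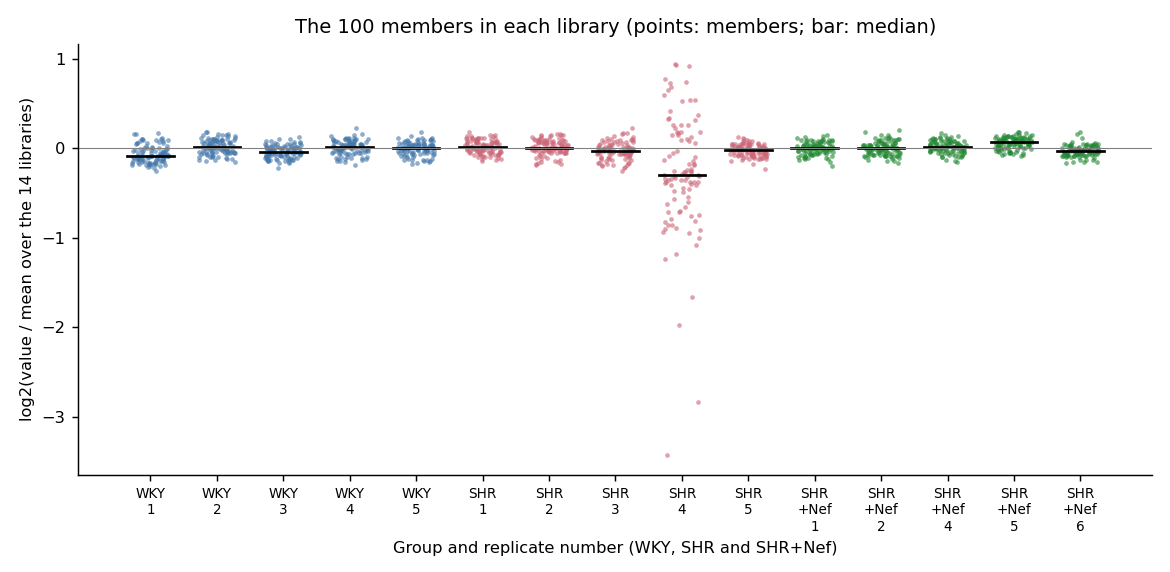
Log2 ratio of each of the 100 members (points) to its mean over the 14 libraries, by library, with the median as a black bar. The points of the 14 libraries form tight columns with medians near 0, and those of SHR replicate 4 spread from a ratio of 0.0929 to one of 1.93 with the median below 0.

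The same levels over all eligible transcripts varied more. Relative to the geometric mean of the 14 libraries, the median ratio over the members ran from 0.947 to 1.05 (SD 2.41% over the 14), and that over the 5609 eligible transcripts from 0.945 in WKY replicate 3 to 1.1 in WKY replicate 2 (SD 5.77%). The members were chosen on unscaled values, which lowers the spread of their own scale by construction. In SHR replicate 4 the 2 scales parted: the typical eligible transcript stood at 1.03 and the typical member at 0.816. By group the member scale was 0.989 ± 0.0284 (SD, n = 5) in WKY, 0.999 ± 0.0148 (SD, n = 4) in SHR and 1.01 ± 0.0253 (SD, n = 5) in SHR+Nef.

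**Figure D4:**
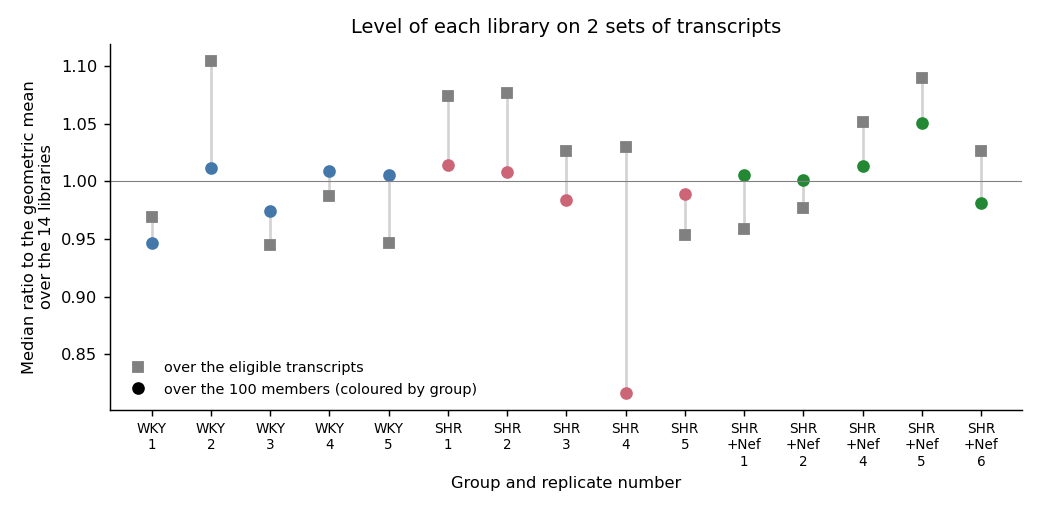
Median ratio to the geometric mean over the 14 libraries for the eligible transcripts (grey squares) and the 100 members (circles coloured by group), for each of the 15 libraries. Among the 14 the circles stay between 0.947 and 1.05 and the squares between 0.945 and 1.1, and in SHR replicate 4 the circle is at 0.816 and the square at 1.03.

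Over the 14 libraries the correlation of log2 values between 2 members had a median of 0.129 over 4950 pairs, with 64.7% of pairs positive. All pairs share the same 14 libraries and their depth. Choosing low CVs on unscaled values leaves out transcripts that follow library-wide shifts, so this value was limited by the rule. After the libraries were scaled, the median correlation was -0.009 and 49.0% of pairs were positive. Scaling itself changes the shift that all members of a library share, so a value near 0 after it does not show that members vary independently.

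Which transcripts were steadiest depended on scaling. After each library was divided by its median ratio over the eligible transcripts, the members' median CV was 6.90% in place of 5.86%, and 27 of 100 members had a lower CV than before. Over the eligible transcripts the median CV moved the other way, from 21.6% to 20.7%, and was lower in 58.4%. The 100 lowest CVs on the scaled values shared 23 transcripts with the members, 23% of each list. The members were still near the front of the scaled order, with a median rank of 232 and a last rank of 838 among 5609. Of the scaled list, 92 had Ensembl IDs and 8 assembled IDs.

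The 23 shared transcripts are low in CV under both scalings. They include ENSRNOT00000046159, second on the deposited values and 37th on the scaled ones, and ENSRNOT00000035048, 9th and 6th, with a CV of 4.59% as deposited and 3.56% scaled. ENSRNOT00000008289, which had the lowest scaled CV at 2.96%, was 70th on the deposited values with 6.38%.

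SHR replicate 4 lay outside the range of the other 14 libraries in 89 of the 100 members, below it in 64 and above it in 25. In the other eligible transcripts it was outside in 55.4%, below in 27.3% and above in 28.1%. The members' ranges are narrower by the rule, so the higher count does not show a larger displacement. In size the members were displaced less: the median absolute log2 deviation of SHR replicate 4 from the mean of the 14 was 0.379 in the members and 0.767 in the rest. The median signed deviation was -0.29 in the members and -0.08 in the rest. The downward shift depended on the selection: in the 100 transcripts with the lowest CVs on median-scaled values it was -0.08 on the deposited values and -0.10 on the scaled ones, where 47 were below the range and 37 above, while the median absolute deviation there was 0.375 and 0.366. None of the members was at 0 in SHR replicate 4, whereas 4.54% of the rest were, against 1.40% to 2.03% of the rest in each of the 14.

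By size, SHR replicate 4 differed from the 14-library mean by more than 1.1-fold in 89 members, by more than 1.2-fold in 71, by more than 1.5-fold in 35 and by more than 2-fold in 8. In the other eligible transcripts the same limits were passed by 90.1%, 80.9%, 59.8% and 38.1%. The shares were close at the 1.1-fold limit and parted at the larger limits. Across the 100 members the rank correlation of SHR replicate 4 with the 14-library mean was 0.914. Each of the 14 reached 0.995 to 0.998 with the mean of the other 13. These correlations are across transcripts, which are not independent replicates.

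A library left out of the choice cannot look as steady as those in it, so each of the 14 was left out in turn. For each, 100 transcripts were chosen anew on the other 13 libraries, and its own values on them were read. These lists shared 80 to 93 members. The median absolute log2 deviation of the library left out was 0.0599 in SHR+Nef replicate 4 to 0.132 in WKY replicate 1, with a median of 0.0717. That of SHR replicate 4, 0.379, was 2.88 times the highest of these. The left-out library was outside the range of the others in 12 to 54 of 100 transcripts, most in WKY replicate 1 and next in SHR+Nef replicate 5 with 40. It differed by more than 1.2-fold in 0 to 12 transcripts, against 71, and by more than 2-fold in 0 or 1, against 8.

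The same comparison was made over all eligible transcripts in 10 bins of rising CV, again without the library being read. SHR replicate 4 had a median absolute log2 deviation of 0.458 in the first bin and 1.95 in the last. Over the same bins the median of the 14 rose from 0.0930 to 1.51. SHR replicate 4 thus stood at 4.92 times the typical library in the steadiest bin and 1.29 times in the most variable one, and above the highest of the 14 in each of the 10 bins. The bins were ordered by the CV of the other libraries, so the deviation of the 14 rises over them by construction. The falling ratio therefore does not show that the steadiest transcripts were displaced most. In absolute size the deviation of SHR replicate 4 was lowest in the first bin.

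**Figure D5:**
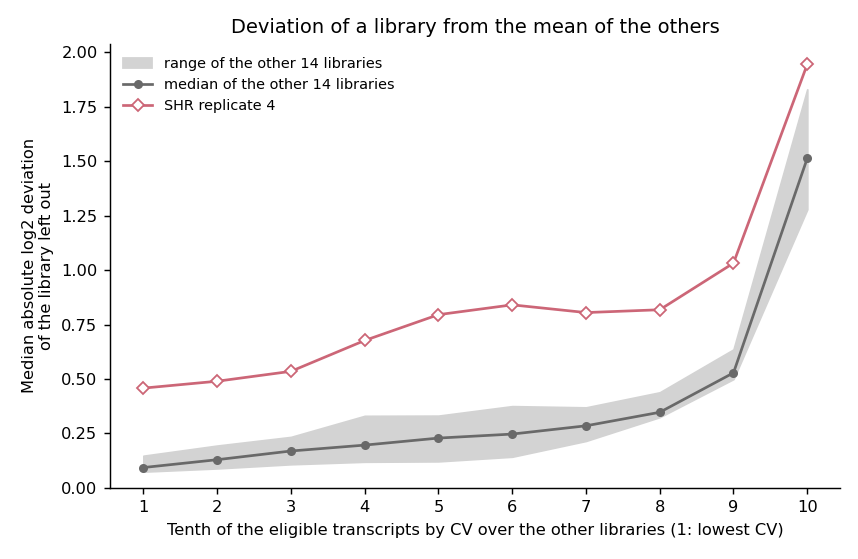
Median absolute log2 deviation of a library from the mean of the others, for 10 bins of the eligible transcripts ordered by CV without that library. The SHR replicate 4 line (diamonds) climbs from 0.458 to 1.95 and stays above the grey range of the other 14 libraries, and the gap to their median, in relative terms, narrows from 4.92 times to 1.29 times.

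The displacement of SHR replicate 4 was not confined to a few members. MERGE.23810.1 fell furthest in ratio, at 1.27 against 12 to 14.5 in the other 14 libraries, a ratio of 0.0929 to their mean. It was 14.2, 13.2, 14.5, 12 and 13.4 in WKY, 14.1, 13.3, 13.6 and 14.2 in SHR, and 14, 14, 12.8, 14 and 14.2 in SHR+Nef. Its locus sum, 12.5 to 15.4 in the 14, was 1.66. MERGE.22772.3 was 2.89 against 18 to 22.9, a ratio of 0.140. The 3 groups overlapped in both transcripts without replicate 4. With it the SHR mean of MERGE.23810.1 was 11.3 ± 5.61 (SD, n = 5), and without it 13.8 ± 0.433 (SD, n = 4).

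In the other direction, MERGE.9110.1 was at 43.9 in SHR replicate 4 and between 19.5 and 25.4 in the 14, a ratio of 1.93. ENSRNOT00000028368 was at 35.2 against 16.7 to 20.5, a ratio of 1.91. It was 19.5, 17.3, 16.7, 16.7 and 17.5 in WKY, 18.9, 19.3, 18.3 and 18.5 in the other SHR libraries, and 17.4, 19.0, 18.5, 19.7 and 20.5 in SHR+Nef. Members above and below their range thus occurred side by side. Divided by its member scale, SHR replicate 4 was still outside the range in 74 members, 34 below and 40 above, and by more than 1.2-fold in 59.

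ENSRNOT00000023514 was the member nearest to its usual level in SHR replicate 4. It had 36.1 there, 0.978 of the mean of the 14 (36.9 ± 2.15, SD, n = 14). Its values were 38.6, 36.9, 33.8, 35.3 and 33.2 in WKY, 37.3, 36.2, 35.9 and 37.9 in the other SHR libraries, and 35.1, 38.5, 39.7, 40.8 and 36.9 in SHR+Nef. Replicate 4 of SHR lay here inside the range of its group.

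The displacement was seen at both levels of abundance and in both kinds of ID. In the more abundant 50 members the median absolute log2 deviation of SHR replicate 4 was 0.351, with 28 below and 15 above the range. In the less abundant 50 it was 0.415, with 36 below and 10 above. It was 0.354 in the 75 members with Ensembl IDs, of which 49 were below and 16 above. In the 25 assembled members it was 0.412, with 15 below and 9 above. These are single values from 1 library, so the differences between them carry no test.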

How the data were processed

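Per the labels' protocols, TRIzol was used on rat abdominal aorta, ribosomal RNA was removed and NEB kits made the libraries. The authors deposited 1 table per library of non-negative signal values per transcript. The sources used here do not name the scale (FPKM or TPM), aligner, assembler, annotation or estimator. The submitters' processing notes name limma and the mouse build mm10, although the IDs are of rat. The series text speaks of mice. Sample labels were followed.

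The members and lists were chosen with earlier results of these data known. Groups were compared with limma 3.58.1 (R 4.3.3) on log2(value + 1), with trend and robust options, 15 libraries in 1 model, over transcripts listed in all files with at least 1 in at least 5 libraries. The CV and SHR replicate 4 were described in Python 3.11.15 without a test. Members named are the 10 lowest CVs, both sides of the CV limit, and the extremes of mean, of SHR replicate 4 ratio and of each group ratio. Other transcripts named were chosen after their values were seen. Both steps were checked on simulated data. For the selection, the planted transcripts had CVs far below the rest, so that check does not bear on the dense limit found here. Alternatives were other scalings, filters, pseudocounts, selections, a replicate block and libraries left out.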

Additional observations from a re-analysis of the deposited data

Results flagged for a closer look

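The 26 named members in 3 groups and 6 summaries of the 15 libraries by group gave 96 sets of 5 libraries. In 26 of them the lowest or highest library was separated from the others by a gap beyond Dixon's 95% critical value, of which chance gives about 5%. SHR replicate 4 was the library apart in 14 of the 20 such sets of named members, but 4 of these 14 members (MERGE.23810.1, MERGE.22772.3, MERGE.9110.1 and ENSRNOT00000028368) were named for their extreme ratio in SHR replicate 4, so the count cannot be read against chance. The members were chosen for low spread over the other libraries, so a gap to SHR replicate 4 was not limited by the rule, and the other gaps were. The rule also kept the other SHR values close together, which raises the gap ratio of SHR replicate 4 in all 14 members.

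By this gap SHR replicate 4 stood below the other SHR libraries in 12 members. It read 113 in ENSRNOT00000016432, 99.9 in ENSRNOT00000029025, 10.5 in MERGE.15070.1, 28.3 in MERGE.27686.1 and 145 in ENSRNOT00000035628. It read 229 in ENSRNOT00000078250, 4.50 in ENSRNOT00000051653, 1.27 in MERGE.23810.1 and 2.89 in MERGE.22772.3. It read 14.2 in ENSRNOT00000078834, 17.7 in ENSRNOT00000004878 and 20.1 in MERGE.5215.1. It stood above them by such a gap in 2, with 35.2 in ENSRNOT00000028368 and 43.9 in MERGE.9110.1.

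Replicate 4 of SHR was also apart from the other SHR libraries in its median ratio on the members (0.815 against 0.982 to 1.01), in the members' share of its listed sum (0.743% against 1.09% to 1.19%) and in its median absolute log2 deviation (0.379 against 0.0627 to 0.0854). For the latter the other SHR libraries were each read on 100 transcripts chosen anew without them. Counted on such lists, and on the members for SHR replicate 4, that library was also apart in the transcripts outside the range of the other libraries (89 against 14 to 32) and in those off by more than 1.2-fold (71 against 2 to 7).

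The other 6 members' sets were small in size. They were MERGE.15070.1 in SHR+Nef replicate 6 (12.3, others 13.5 to 13.7), MERGE.27686.1 in WKY replicate 5 (56.4, others 57.2 to 57.4) and ENSRNOT00000078250 in SHR+Nef replicate 2 (305, others 265 to 274). ENSRNOT00000028368 was high in WKY replicate 1 (19.5, others 16.7 to 17.5), MERGE.23810.1 low in SHR+Nef replicate 4 (12.8, others 14 to 14.2) and MERGE.5215.1 high in WKY replicate 5 (38.6, others 33.3 to 34.6). SHR+Nef replicate 5, left out of its own selection, had a median absolute log2 deviation of 0.105 against 0.0599 to 0.0686 in its group.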

How the results depend on the processing

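None of the 57 alternatives to the limma fits over the 3 comparisons called a member. Libraries left out in turn gave counts of 0 to 0. The smallest adjusted p of a member was 0.401 in these (quantile normalization, SHR against WKY), and at most 3 members had an unadjusted p under 0.05. Those 3 were for SHR+Nef against SHR without SHR replicate 5, where 2864 of all 29095 transcripts were under that limit in limma. The rule limited the members' counts in every alternative, so they are no evidence of stability. A library was left out here only for comparisons that include its group. Outside the 57, the limma fit without SHR replicate 4 gave a smallest adjusted p of 0.325 for SHR+Nef against WKY.

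With the replicate block, 0 members were called in each comparison, and the calls over all transcripts were 145, 0 and 164 in place of 331, 2 and 377. Same-numbered libraries did not deviate together, with correlations of -0.07 to 0.09 in 13 pairs, so the numbers were not taken to pair the libraries.

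The median absolute log2 deviation of SHR replicate 4, 0.379, was 0.403 with median scaling over the eligible transcripts, 0.412 with scaling by the members, 0.403 with the SD of log2 values as the measure, 0.403 with a minimum mean of 5 and 0.432 with the mean of the CVs within groups. Taking the 10 lowest CVs in each of 10 bins of the mean, an alternative chosen after seeing the data, gave 0.537. Leaving out a library of the 14 gave 0.373 to 0.491, the highest without WKY replicate 1. The count of members outside the range stayed within 1.5 times of 89 in all 23 alternatives, 86 to 92 with a library left out.

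The median CV, 5.86%, was 7.93% on the deposited values (5.18% on the scaled values) in the list chosen on median-scaled values, 6.22% with a minimum mean of 20, 5.99% with CVs within groups, 6.14% with the 10 lowest in each bin and 7.68% with SHR replicate 4 included. It was 5.59% to 5.96% with a library left out. Of the 100 members, 23 remained in the list on median-scaled values, 50 with SHR replicate 4 included, 26, 25 and 29 when WKY, SHR or SHR+Nef alone was used, and 80 to 93 with a library left out. The cause of these changes was not tested.

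Depth and unit are not known, which limits the reading of low values. The displacement of SHR replicate 4 rests on 1 library and its cause was not tested.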

Other observations

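Steadiness within 1 group carried over to the others in part. The 100 lowest CVs chosen in WKY alone had a median CV of 4.08% there, 8.07% in SHR without replicate 4 and 8.34% in SHR+Nef. Those chosen in the 4 SHR libraries had 2.84% there, 10.5% in WKY and 7.81% in SHR+Nef. Those chosen in SHR+Nef had 3.42% there, 9.99% in WKY and 8.57% in SHR. The medians over all eligible transcripts were 21.2% (WKY), 18.5% (SHR) and 16.1% (SHR+Nef), so each list was steadier than the typical transcript in the groups that had not chosen it.

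Some transcripts were kept out of the members by 1 library. The following were picked after their values were seen, as steady in 13 libraries and more than 2-fold off in 1 of the 14, with SHR replicate 4 outside this choice. MERGE.17880.1 was at 0 in SHR+Nef replicate 2, between 29.8 and 36.5 in the other 13 and at 21.2 in SHR replicate 4. ENSRNOT00000089750 was at 0.0127 in WKY replicate 5, between 29.1 and 36.0 in the other 13 and at 21.6 in SHR replicate 4. MERGE.6043.2 was at 0.202 in SHR+Nef replicate 6, between 18.9 and 22.8 in the other 13 and at 10.3 in SHR replicate 4. MERGE.9634.1 was at 0 in both WKY replicate 2 and SHR replicate 4 and between 10.3 and 12.9 in the other libraries. MERGE.14132.1 was at 5.67 in SHR+Nef replicate 5 and between 22.9 and 27.6 in the other 13. SHR replicate 4, at 26.1, lay inside that range.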
